A study of Mus musculus with 16 samples.

Results

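The 9 genes described here encode matrix-degrading proteases and the plasminogen-activating pair that works beside them: Mmp2, Mmp3, Mmp9, Mmp10, Mmp13 and Mmp14, the inhibitor Timp1, the urokinase Plau and the urokinase receptor Plaur. They were taken as every probe set that the array annotation gives to one of these symbols alone, which were 14 of the 45037 probe sets and 9 of the 18193 genes on the arrays. The mRNA was that of CT26 cells, a colon carcinoma line from BALB/c mice, grown in culture and measured on 4 Affymetrix mouse arrays for each of 4 stably transfected lines, 16 in all. The shTR1/shSep15 line carried hairpins against both TR1 (thioredoxin reductase 1, gene Txnrd1) and Sep15 (the 15 kDa selenoprotein, gene Selenof), the shSep15 and shTR1 lines carried one hairpin each, and control cells carried the empty pU6-m3 vector. All 4 lines had been selected with hygromycin B, controls included, so that this procedure is shared by every comparison. The effect of a hairpin cannot be told apart from other differences between the separately made lines. The 4 arrays of a line came from different mRNA samples. Nothing states whether these were separate cultures, so that the p-values measure the spread between such samples, which may be technical.

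Matrix metalloproteinases are zinc-dependent enzymes that are made as inactive proenzymes and cut collagens, fibronectin, laminin and other proteins of the extracellular matrix. Tissue inhibitors of metalloproteinases, of which Timp1 is one, bind the active enzymes and block them. Urokinase, held at the cell surface by its receptor, turns plasminogen into plasmin, which digests fibrin and can activate several of the proenzymes. In colon tumors these genes are expressed by carcinoma cells and, often more strongly, by fibroblasts and leukocytes around them, and they are studied for their part in invasion and metastasis.

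The hairpins were directed against the following stretches of the target mRNAs, shown because they define the lines that are compared, written from 5′ to 3′ as DNA.
Sep15: acagaagagttccatttaa
TR1: atcgctctgacaagcttattag
Upstream sequence is shown for the members on which the results turn. RefSeq promoter windows on GRCm38.p6, each of 300 bases (250 before and 50 after the start of the gene), were at hand for 6 members: Mmp3, Mmp10, Mmp13, Mmp14, Timp1 and Plaur. Mmp2, Mmp9 and Plau had no window in the table. The windows were searched for TGACTCA and its reverse complement TGAGTCA, the core bound by AP-1, a dimer of Fos and Jun proteins known to drive several metalloproteinase genes. It was in 5.2% of the 32851 mouse windows. Among the 6 members the windows of Mmp3, Mmp10, Mmp13 and Plaur held it once, beginning 46, 63, 35 and 69 bases before the start, and those of Mmp14 and Timp1 did not. The 150 bases before the start follow for 5 of them, all on the plus strand, with these letters in capitals where present. They lie at chr9:7272364-7272513 (Mmp13), chr9:7445672-7445821 (Mmp3), chr9:7502192-7502341 (Mmp10), chr14:54431448-54431597 (Mmp14) and chrX:20870016-20870165 (Timp1), and Mmp3, Mmp10 and Mmp13 belong to one gene cluster on chromosome 9.
Mmp13: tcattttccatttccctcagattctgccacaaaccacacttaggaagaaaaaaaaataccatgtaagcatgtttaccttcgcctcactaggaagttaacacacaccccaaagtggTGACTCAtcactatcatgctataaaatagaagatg
Mmp3: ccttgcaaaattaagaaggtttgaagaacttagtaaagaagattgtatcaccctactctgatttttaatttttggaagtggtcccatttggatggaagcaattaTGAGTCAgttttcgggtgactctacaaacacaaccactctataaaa
Mmp10: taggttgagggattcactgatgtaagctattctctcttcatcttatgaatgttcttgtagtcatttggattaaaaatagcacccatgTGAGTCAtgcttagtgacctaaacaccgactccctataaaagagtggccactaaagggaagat
Mmp14: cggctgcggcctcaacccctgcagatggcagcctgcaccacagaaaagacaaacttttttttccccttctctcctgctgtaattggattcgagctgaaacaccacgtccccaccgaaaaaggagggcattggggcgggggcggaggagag
Timp1: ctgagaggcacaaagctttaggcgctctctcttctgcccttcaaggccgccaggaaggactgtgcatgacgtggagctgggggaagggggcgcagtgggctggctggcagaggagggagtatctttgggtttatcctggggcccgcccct
A match is a description of the sequence and not a measured binding site, and a window without these letters says nothing on the factor.

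Selenof fell in both lines with the Sep15 hairpin, by 3.68 on the log2 scale in shTR1/shSep15 and by 3.20 in shSep15 cells compared to controls (adjusted p = 4.86e-07 and 1.11e-06 from limma). Txnrd1 was at 7.18 to 7.91 in the shTR1/shSep15 arrays and at 9.45 to 10.39 in control arrays, at its brightest probe set. In the arrays labelled shTR1 it was at 7.85 and 7.89 in replicates 1 and 3, but at 10.57 and 9.71 in replicates 2 and 4. These 2 arrays thus go against their label at this probe set. The differences from control, -2.36 in shTR1/shSep15 and -0.96 in shTR1 cells, did not pass (adjusted p = 0.19 and 0.455 from limma). Neither line passed at the dimmer probe sets. At the second brightest, shTR1 replicates 1 to 4 were at 4.62, 5.24, 4.76 and 5.58, against 5.51 to 6.58 in control arrays. Control replicate 2 stood apart as well, with a median correlation of 0.941 with the other control arrays, where the other 15 arrays had 0.968 to 0.995 with their own line. It held the highest of the 16 values at 13.7% of all probe sets and the lowest at 15.4%. Replicate 2 of shTR1/shSep15 held the highest at 16% and the lowest at 8.99%, and 8 of 16 leukocyte markers were highest in it. Values without control replicate 2, or without shTR1 replicates 2 and 4, are given beside many of the results. Replicate 2 of shTR1/shSep15 was left out only in the fits without 1 array at a time. As to the label of colon carcinoma, 7 of 13 epithelial markers were brighter than the median of all probe sets, ranging from percentile 3.67 (the adhesion gene Cdh1) to 82.8 (the intestinal keratin Krt20). So were 11 of 13 fibroblast and mesenchymal markers, from 34.9 (Thy1) to 99.7 (Vim). Of the leukocyte markers 8 of 16 were, from 9.55 (Ptprc, carried by nearly all leukocytes) to 89.5 (Cd14), and of the endothelial markers 2 of 8, from 14.8 (Emcn) to 65.6 (Kdr). As in any bulk sample, fewer cells with a transcript and less of it per cell cannot be told apart.

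Timp1, Plaur and Mmp14 were bright in all 4 lines, and the other 6 genes were dim. Over the 16 arrays the mean log2 signal lay at percentile 98.1 of all probe sets for Timp1, 94.0 for Plaur and 91.3 for the brighter of the Mmp14 probe sets. The signals of Mmp2, Mmp9 and Mmp10 lay just above the median of all probe sets, at percentiles 56.8, 53.4 and 57.7, and those of Mmp3, Plau and Mmp13 below it, at 43.7, 43.4 and 32.7. Brightness depends on the probes too, so that these are no amounts of transcript. Compared to controls, 0 of 14 probe sets passed an adjusted p of 0.05 in any knockdown line. In these comparisons 0.0244% of all probe sets passed in shTR1/shSep15, 1.97% in shSep15 and 0.18% in shTR1 cells. At an unadjusted p of 0.05 the members past it numbered 3, 1 and 2 of the 14 probe sets, where 8.14%, 12.7% and 11.8% of all probe sets were.

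**Figure D1:**
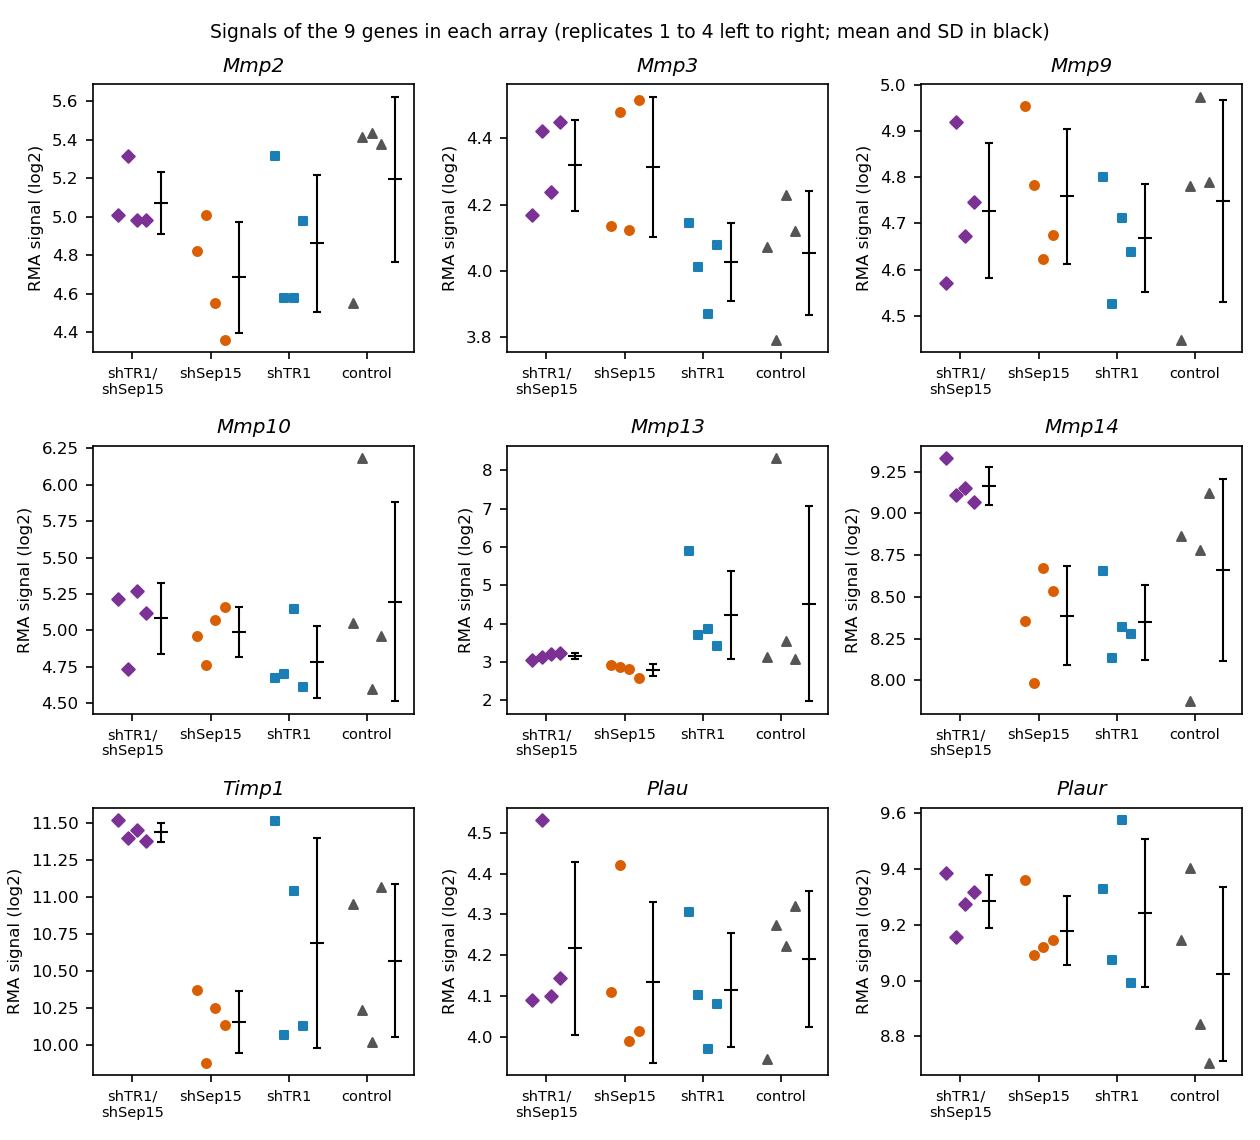
RMA signal (log2, vertical axis, a separate scale in each panel) of the 9 genes at their brightest probe set in the 4 arrays of each line; black bars are the mean and SD of 4 arrays. The 4 shTR1/shSep15 arrays lie above all shSep15 arrays for Timp1, Mmp14 and Mmp13, and single arrays stand far from their line for Mmp13 and Mmp10 (control replicate 2).

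Timp1, a secreted inhibitor of most matrix metalloproteinases, rose in shTR1/shSep15 compared to shSep15 cells and was the only member that passed in any comparison. Its log2 signals were 11.53, 11.40, 11.45 and 11.38 in the shTR1/shSep15 arrays, against 10.37, 9.88, 10.25 and 10.13 in the shSep15 arrays. The lines did not overlap, and the 4 shTR1/shSep15 arrays lay within a narrow band (SD 0.065, against 0.209 in shSep15). The difference was 1.28 on the log2 scale (standard error 0.30, 95% confidence interval 0.65 to 1.91, 2.43-fold), with an adjusted p of 0.0318 from limma and an exact two-sided permutation p of 0.0286, the smallest that 4 arrays against 4 can give. This was 1 of 14 member probe sets, in a comparison where 2.66% of all probe sets passed. The call ended with any 1 of the 8 arrays of these lines left out, at adjusted p-values of 0.0546 to 0.0902 and differences of 1.19 to 1.35, and stood without control replicate 2 (adjusted p = 0.0222) and without shTR1 replicates 2 and 4 (adjusted p = 0.0066). Of the marker lists, the mean of 13 epithelial genes was 4.73 to 5.03 in shTR1/shSep15 and 4.15 to 4.41 in shSep15 arrays. That of 13 fibroblast and mesenchymal genes was 7.70 to 8.18 and 7.40 to 7.74 in the same order. The median differences of both lists were only 0.09, where that over all probe sets was 0.02. Single genes differed far more, such as Krt20 (means of 8.57 and 5.02) and Krt18 (6.45 and 3.26). The part of the marker genes in the Timp1 difference was not tested.

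Control arrays had Timp1 signals of 10.95, 10.24, 10.02 and 11.07, all below the 4 shTR1/shSep15 arrays. The difference of 0.87 between shTR1/shSep15 and control cells (standard error 0.30, interval 0.24 to 1.50) did not pass, with an adjusted p of 0.468 from limma. It was the 1 member probe set of 14 with all shTR1/shSep15 arrays above all control arrays, which held for 3.12% of all probe sets. In the arrays labelled shTR1 the signals of replicates 1 to 4 were 11.52, 10.07, 11.04 and 10.13. They ran from within the range of the shSep15 arrays to within that of the shTR1/shSep15 arrays. The replicates with high Timp1 were those with a low Txnrd1 signal (7.85 and 7.89 in replicates 1 and 3, against 10.57 and 9.71 in replicates 2 and 4), and whether the 2 signals are linked was not tested. The differences of shTR1/shSep15 from shTR1 cells (0.75, adjusted p = 0.387 from limma) and of shTR1 from control cells (0.12, adjusted p = 0.88) did not pass. Without shTR1 replicates 2 and 4 they were 0.16 and 0.71, at adjusted p-values of 0.974 and 0.597. Timp1 averaged 0.41 less in shSep15 than in control cells, at an adjusted p of 0.633 with overlapping arrays. In the order of means, shTR1/shSep15 stood highest, followed by shTR1, control and shSep15, and none of these neighbors differed past the threshold.

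Mmp14, the membrane-anchored metalloproteinase that cuts collagen at the cell surface and activates the Mmp2 proenzyme, was likewise highest in shTR1/shSep15 cells, and its lowest means were those of the single knockdowns. Its log2 signals at the brightest probe set were 9.33, 9.11, 9.15 and 9.07 in shTR1/shSep15 arrays. They were 8.36, 7.99, 8.68 and 8.54 in shSep15 arrays and 8.66, 8.13, 8.32 and 8.28 in shTR1 arrays. Every shTR1/shSep15 array lay above every array of both single knockdowns, at this and at the other 2 Mmp14 probe sets. The 3 probe sets report the same gene and moved together over the 16 arrays (Pearson correlations with the brightest of 0.92 and 0.93, a description). Control arrays had 8.86, 7.87, 8.78 and 9.12, so that control replicate 2 was the lowest of all 16 arrays and replicate 4 alone among the controls reached the shTR1/shSep15 values. At the other probe sets control replicate 2 was at 6.30 and 5.82, below the 7.10 to 7.24 and 6.90 to 7.06 of the other control arrays. The shTR1/shSep15 arrays ran from 7.08 to 7.35 and from 6.97 to 7.49 there, so that they overlapped with control arrays at both.

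The difference between shTR1/shSep15 and shSep15 cells in Mmp14 was 0.78 at the brightest probe set (standard error 0.22, interval 0.30 to 1.25, 1.71-fold) and 0.58 and 0.83 at the others, with adjusted p-values of 0.0866, 0.1 and 0.0979 from limma. Between shTR1/shSep15 and shTR1 cells it was 0.82 (standard error 0.22, interval 0.34 to 1.29, 1.76-fold), 0.63 and 0.85, with adjusted p-values of 0.193, 0.193 and 0.218. None passed with all 16 arrays. Without control replicate 2 these differences were the same and all 6 passed, at adjusted p-values of 0.00837, 0.0039 and 0.0106 against shSep15 and of 0.0362, 0.0209 and 0.0465 against shTR1. In that fit 4.97% and 0.391% of all probe sets passed, where with all arrays 2.66% and 0.0733% did. Without shTR1 replicates 2 and 4 the differences from shTR1 cells were 0.68, 0.54 and 0.69, and none passed (adjusted p = 0.729, 0.714 and 0.748). With control replicate 2 left out as well, none passed against shTR1 cells either. From control cells shTR1/shSep15 differed by 0.50, 0.26 and 0.49 (adjusted p = 0.587, 0.758 and 0.648), and by 0.24, 0.03 and 0.20 without control replicate 2 (adjusted p = 1). The single knockdowns differed from each other by 0.04 (interval -0.43 to 0.52), which leaves differences of that size in either direction possible.

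Counted over the members, the 4 shTR1/shSep15 arrays lay above the 4 shSep15 arrays without overlap at 5 of 14 probe sets, those of Timp1, Mmp13 and the 3 of Mmp14, where 7.11% of all probe sets did. They lay above the 4 shTR1 arrays at 4 of 14, those of Mmp3 and the 3 of Mmp14, where 3.41% of all probe sets did. Since 3 of these probe sets are of Mmp14, these are 3 and 2 genes. Mmp13 and Mmp3 are dim, and Mmp13 was at only 3.04 to 3.24 in shTR1/shSep15 and 2.57 to 2.91 in shSep15 arrays. At the brightest probe set, 8 of 9 genes were higher in shTR1/shSep15 than in shSep15 cells, with a median difference of 0.10 against 0.02 over all probe sets. Against shTR1 cells 8 of 9 were higher too, with a median of 0.21 against 0.03. It was 6 of 9 without shTR1 replicates 2 and 4, with a median of 0.13, as Mmp9 (-0.0283) and Plaur (-0.17) turned lower beside Mmp13. Such counts were not particular to the members, and the share of all probe sets that were higher was not counted. Against shSep15 cells 9 of 12 further metalloproteinase genes, 12 of 16 leukocyte markers and 4 of 12 AP-1 and Ets genes were higher. Against shTR1 cells these were 10 of 12, 14 of 16 (with a median of 0.20) and 4 of 12. The same 4 shTR1/shSep15 arrays enter both comparisons.

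Non-additivity was taken as the level with both hairpins, less that with each, plus that of control cells, so that 0 means that the 2 single effects add up on the log2 scale. None of the 14 member probe sets passed, where 2.85% of all probe sets did. Mmp14 came nearest, with 1.09 (standard error 0.31, interval 0.42 to 1.76, adjusted p = 0.0826 from limma), 0.94 (adjusted p = 0.0508) and 1.19 (adjusted p = 0.0843) at its 3 probe sets. Timp1 had 1.16 (standard error 0.42, interval 0.27 to 2.06, adjusted p = 0.175). Mmp2, the gelatinase whose proenzyme Mmp14 activates, had 0.72 at its brighter probe set (standard error 0.31, adjusted p = 0.258). The median over the 9 genes was 0.51, and over all probe sets 0.06. That of the 9 genes was 0.13 without control replicate 2 and 0.14 without shTR1 replicates 2 and 4. Without control replicate 2 Mmp14 passed at all 3 probe sets, at 1.35, 1.17 and 1.48 (adjusted p = 0.00387, 0.000719 and 0.00422), in a fit where 5.2% of all probe sets passed. In the same fit Mmp14 lay below control by 0.54, 0.54 and 0.62 in shSep15 cells (adjusted p = 0.112, 0.0144 and 0.0912) and by 0.58, 0.59 and 0.65 in shTR1 cells (adjusted p = 0.173, 0.0405 and 0.163). With all 16 arrays those differences were -0.27, -0.32 and -0.34 in shSep15 and -0.31, -0.37 and -0.36 in shTR1 cells. None passed without shTR1 replicates 2 and 4, at 0.95, 0.85 and 1.03 for Mmp14 (adjusted p = 0.312, 0.217 and 0.298) and 0.57 for Timp1 (adjusted p = 0.561), in a fit where 1.15% of all probe sets passed. Timp1 passed with shTR1 replicate 1 alone left out (1.44, adjusted p = 0.0421). That fit drops an array with a low Txnrd1 signal and keeps shTR1 replicates 2 and 4.

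**Figure D2:**
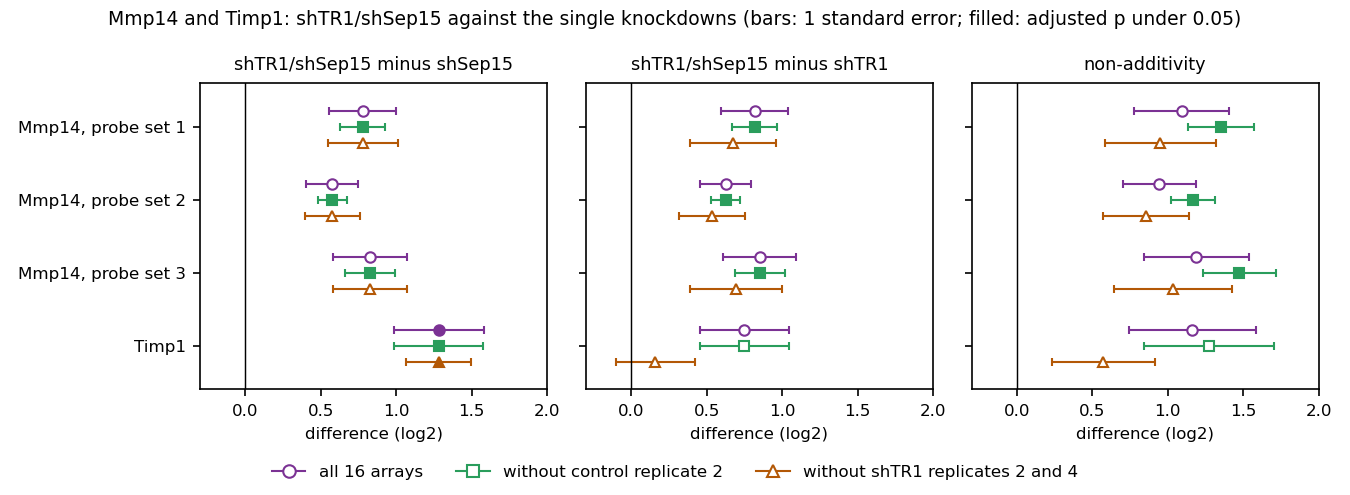
Log2 differences (horizontal axes) of shTR1/shSep15 from shSep15 and from shTR1 cells, and non-additivity, at the 3 Mmp14 probe sets and at Timp1; circles are all 16 arrays, squares the fit without control replicate 2, triangles that without shTR1 replicates 2 and 4, bars 1 standard error, and filled symbols an adjusted p under 0.05. The Mmp14 differences from the single knockdowns pass only without control replicate 2, and Timp1 passes against shSep15 in all 3 fits.

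Mmp13, the collagenase that cuts fibrillar collagen in mice, had the widest spread of the members. Its log2 signals were 3.04, 3.12, 3.21 and 3.24 in shTR1/shSep15 arrays and 2.91, 2.86, 2.82 and 2.57 in shSep15 arrays. In shTR1 arrays they were 5.91, 3.70, 3.87 and 3.41, and in control arrays 3.12, 8.32, 3.54 and 3.08. Control replicate 2 and shTR1 replicate 1 thus stood far above all others, and the residual SD of 1.40 within lines was larger than that of 99.9% of all probe sets. The 4 shSep15 arrays lay below all 4 control arrays (difference -1.72, standard error 0.90, interval -3.64 to 0.20, adjusted p = 0.47 from limma), which was 1 of 14 member probe sets where 2.48% of all probe sets did so. Without control replicate 2 the difference was -0.46 (adjusted p = 0.733). Against shTR1 arrays the shSep15 arrays were all lower as well, as at 3.04% of all probe sets (difference -1.43, adjusted p = 0.848, and -1.43 with an adjusted p of 0.113 without control replicate 2). Between shSep15 and shTR1 cells 0 of 14 member probe sets passed, where 0.648% of all probe sets did. The 4 shTR1/shSep15 arrays too lay below the 4 shTR1 arrays for Mmp13 (difference -1.07, adjusted p = 0.699), as at 4.66% of all probe sets. Without shTR1 replicates 2 and 4 the differences of shTR1/shSep15 and of shSep15 from shTR1 cells were -1.73 and -2.10 (adjusted p = 0.914 and 0.924). Between shTR1 and control cells the direction was not settled, with -0.29 for all arrays, 0.98 without control replicate 2 and 0.37 without shTR1 replicates 2 and 4, none of which passed (adjusted p = 0.905, 0.405 and 0.956).

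Mmp10 and Mmp3, stromelysins whose genes are neighbors of Mmp13, moved less. Mmp10 was at 6.18 in control replicate 2 and at 5.05, 4.60 and 4.96 in the other control arrays. The 12 knockdown arrays were between 4.61 and 5.27, within the range of the control arrays. Its differences from control were -0.12 in shTR1/shSep15, -0.21 in shSep15 and -0.42 in shTR1 cells (adjusted p = 0.959, 0.798 and 0.514 from limma), and 0.21, 0.12 and -0.09 without control replicate 2, so that 2 of the 3 changed sign. Mmp3 was at 4.17, 4.42, 4.24 and 4.45 in shTR1/shSep15 arrays, 4.14, 4.48, 4.12 and 4.52 in shSep15 arrays, 4.15, 4.01, 3.87 and 4.08 in shTR1 arrays, and 4.07, 3.79, 4.23 and 4.12 in control arrays. The shTR1/shSep15 arrays were all above the shTR1 arrays by a small margin, with a difference of 0.29 (standard error 0.12, adjusted p = 0.423). Control replicate 2, the highest array for Mmp13 and Mmp10, was the lowest for Mmp3. Mmp3 differed from control by 0.27 in shTR1/shSep15 and 0.26 in shSep15 cells (adjusted p = 0.603 and 0.399).

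The factors that act on metalloproteinase promoters were followed in a list of AP-1 and Ets family genes, of which 12 of 13 were measured and 0 passed in any knockdown line compared to controls (medians of -0.58 in shTR1/shSep15, -0.32 in shSep15 and -0.32 in shTR1 cells). Control replicate 2 had the highest of the 16 signals for 9 of these 12 genes, where 13.7% of all probe sets were highest in it. Their mean was 9.97 there and 7.46 to 7.81 in the other control arrays, 7.29 to 7.68 in shTR1/shSep15, 7.44 to 8.17 in shSep15 and 7.48 to 7.70 in shTR1 arrays. Fos, an immediate-early subunit of AP-1, was at 13.52 in that array and at 5.04 to 8.72 in the other 15. Fosl1, a related subunit, was at 11.62 there and at 8.75 to 10.27 in the others. The shSep15 array with the next highest mean, replicate 2, had a Mmp13 signal of 2.86 and a Mmp10 signal of 4.76, both among the low values, and the shTR1 array with 5.91 for Mmp13 had a mean of 7.48. Of the members with the AP-1 letters in their window, Mmp13 and Mmp10 were highest of all arrays in control replicate 2, Plaur was second highest and Mmp3 was lowest. Of those without, Mmp14 was lowest there and Timp1, at 10.24, was not at either end. The part of these factors in the protease signals was not tested.

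**Figure D3:**
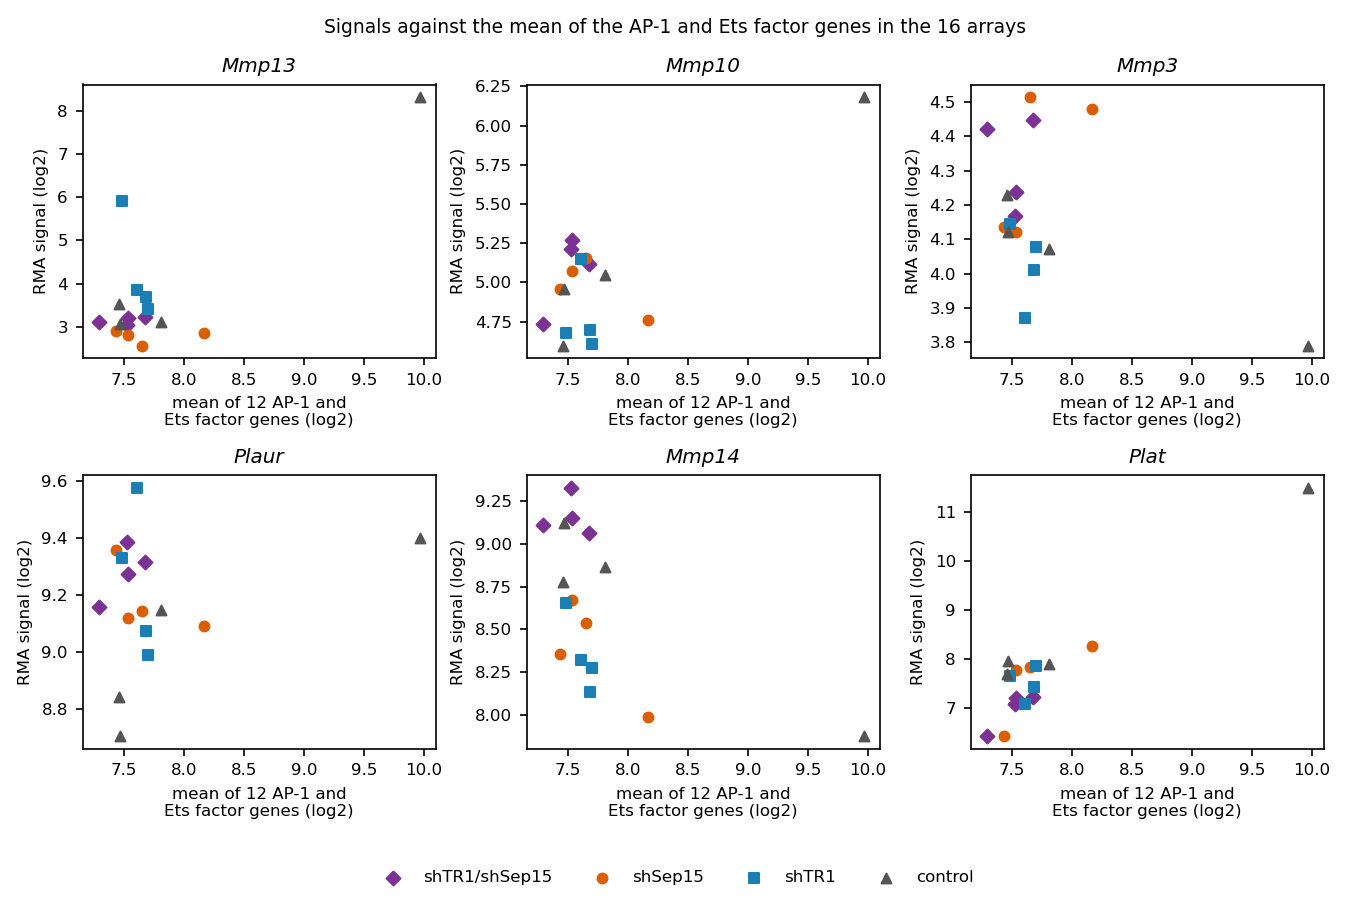
RMA signal (log2, vertical axes) of Mmp13, Mmp10, Mmp3, Plaur, Mmp14 and Plat in the 16 arrays against the mean log2 signal of 12 AP-1 and Ets factor genes (horizontal axes). Control replicate 2, with a mean of 9.97, is highest for Mmp13, Mmp10 and Plat, second highest for Plaur and lowest for Mmp3 and Mmp14, and the other 15 arrays lie between 7.29 and 8.17.

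The gelatinases Mmp2 and Mmp9, which cut denatured collagen and basement-membrane collagen, were dim. Mmp2 was at 5.01, 5.32, 4.98 and 4.98 in shTR1/shSep15 arrays, 4.82, 5.01, 4.55 and 4.36 in shSep15 arrays and 5.32, 4.58, 4.58 and 4.98 in shTR1 arrays. Control arrays had 4.55, 5.41, 5.44 and 5.38, so that 3 of them lay above every knockdown array and replicate 1 lay below most. The median of all probe sets also differed, at 4.475, 4.557, 4.563 and 4.578 in control replicates 1 to 4. In shSep15 replicates 1 to 4 it was 4.500, 4.567, 4.474 and 4.454. Whether the Mmp2 signal follows these medians rather than the line was not tested. The difference between shSep15 and control cells was -0.51 (standard error 0.22, interval -0.97 to -0.05, adjusted p = 0.329 from limma), and it passed with array weights (-0.67, adjusted p = 0.0413). These weigh each array by its closeness to its line over all probe sets, and control replicates 1 and 2 had weights of 0.433 and 0.244. At the dimmer Mmp2 probe set the difference was -0.27 (adjusted p = 0.547). Mmp9 lay between 4.45 and 4.97 over all 16 arrays, with line means of 4.73 in shTR1/shSep15, 4.76 in shSep15, 4.67 in shTR1 and 4.75 in control cells. Its intervals against control ran from -0.27 to 0.23 in shTR1/shSep15, -0.24 to 0.26 in shSep15 and -0.33 to 0.18 in shTR1 cells, and the second probe set gave intervals no wider.

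Plau, the urokinase protease, was dim and Plaur, its receptor at the cell surface, was bright, and neither passed in any comparison. Plau was at 4.09, 4.53, 4.10 and 4.15 in shTR1/shSep15 arrays, and its other values ran from 3.99 to 4.42 in shSep15, 3.97 to 4.31 in shTR1 and 3.95 to 4.32 in control arrays. Its differences from control were 0.03, -0.06 and -0.08 in shTR1/shSep15, shSep15 and shTR1 cells at the brighter probe set (adjusted p of at least 0.818 from limma). Plaur was at 9.39, 9.16, 9.28 and 9.32 in shTR1/shSep15 arrays, 9.36, 9.09, 9.12 and 9.15 in shSep15 arrays, 9.33, 9.07, 9.58 and 8.99 in shTR1 arrays, and 9.15, 9.40, 8.84 and 8.71 in control arrays. All lines overlapped, and the means of the knockdown lines were above control by 0.26, 0.16 and 0.22 (adjusted p = 0.716, 0.744 and 0.554), with intervals that reached 0.59, 0.48 and 0.54. Without control replicate 2 these differences were 0.39, 0.28 and 0.34 (adjusted p = 0.711, 0.44 and 0.388), and without shTR1 replicates 2 and 4 that of shTR1 was 0.43 (adjusted p = 0.662).

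**Figure D4:**
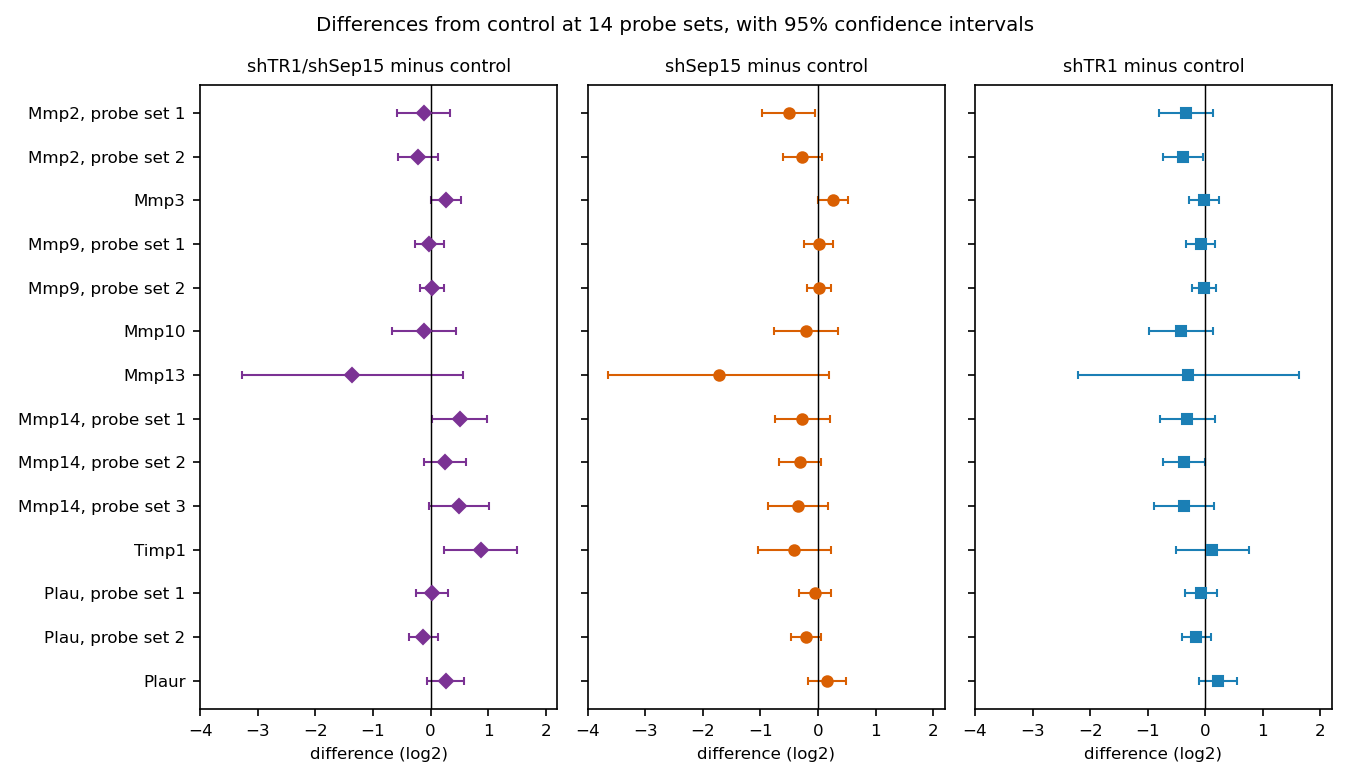
Log2 differences from control (horizontal axes) in shTR1/shSep15, shSep15 and shTR1 cells at the 14 probe sets, with 95% confidence intervals from limma; probe sets of a gene are numbered from the brightest. Most intervals include 0, the widest are those of Mmp13, and Timp1 has the largest positive difference, 0.87 in shTR1/shSep15 cells.

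Around Plau and Plaur, 12 of 15 further genes of the plasminogen system were measured, and 0 rose or fell in any knockdown line compared to controls. Plat, the tissue-type plasminogen activator, was at 7.08, 6.42, 7.21 and 7.22 in shTR1/shSep15 arrays, against 7.90, 11.49, 7.69 and 7.95 in control arrays. All shTR1/shSep15 arrays were lower, as at 1.8% of all probe sets. The difference was -1.78 (adjusted p = 0.512 from limma, standard error 0.66), and control replicate 2 again stood apart. Without it the difference was -0.87 (adjusted p = 0.771). Mrc2, a collagen receptor that associates with the urokinase receptor, was at 5.81, 6.12, 5.99 and 6.18 in shTR1/shSep15 arrays, 4.64, 5.06, 4.92 and 5.02 in shSep15 arrays, 6.02, 4.44, 5.43 and 5.16 in shTR1 arrays and 5.86, 5.23, 6.33 and 6.04 in control arrays. It rose in shTR1/shSep15 compared to shSep15 cells by 1.12 (adjusted p = 0.0446) and passed for non-additivity with 1.72 (adjusted p = 0.0298). All 4 shSep15 arrays lay below the control arrays as well (-0.96, adjusted p = 0.108), as at 2.48% of all probe sets. That difference passed without control replicate 2 (-1.17, adjusted p = 0.0319) and without shTR1 replicates 2 and 4 (-0.96, adjusted p = 0.0372). Leaving out 1 array at a time kept the first call in 4 of 16 fits (adjusted p from 0.0154 to 0.125) and the second in 7 of 16 (adjusted p from 0.00644 to 0.0659).

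Of the other proteases and inhibitors, 12 of 17 further metalloproteinase genes, 7 of 7 genes of inhibitors such as Timp2 and Timp4, 8 of 8 genes of activators and 14 of 15 ADAM and ADAMTS genes were measured, and in none of these 4 lists did a gene pass compared to controls. Median differences in shTR1/shSep15, shSep15 and shTR1 cells were 0.00, -0.11 and -0.08 for the further metalloproteinases, -0.04, -0.09 and -0.12 for the inhibitors, -0.03, -0.11 and -0.10 for the activators and -0.02, -0.04 and -0.11 for the ADAM and ADAMTS genes, where those over all probe sets were -0.01, -0.03 and -0.04. Timp2, the other bright inhibitor, was 0.39 higher in shTR1/shSep15 than in control cells (adjusted p = 0.761 from limma). Bsg, a surface protein that induces metalloproteinases in neighboring cells, was 0.74 higher in shSep15 than in control cells (adjusted p = 0.335). In shSep15 cells all arrays lay above control for the inhibitor Timp4 (0.31, adjusted p = 0.246) and the sheddase Adam15 (0.49, adjusted p = 0.178), as at 3.95% of all probe sets. All lay below control for the protease inhibitor A2m (-0.20, adjusted p = 0.341) and the aggrecan-cutting Adamts4 (-1.12, adjusted p = 0.42), as at 2.48%. Adam9 was 0.77 higher in shTR1 than in control cells (adjusted p = 0.258), with all arrays above, as at 2.5% of all probe sets.

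Cathepsins, proteases mostly of the lysosome, and cystatins, inhibitors of the cysteine proteases among them, were all measured (12 of 12). Compared to controls 0 passed, with medians of 0.17 in shTR1/shSep15, 0.09 in shSep15 and 0.18 in shTR1 cells. Ctsl, which also degrades matrix outside the cell, was above all control arrays in every shTR1/shSep15 array, as at 3.12% of all probe sets. The difference was 0.52 (adjusted p = 0.46 from limma). Cst6, an inhibitor of such proteases, rose in shTR1/shSep15 compared to shSep15 cells by 1.93 (adjusted p = 0.0178) and passed for non-additivity with 2.77 (adjusted p = 0.0175). Its signals were 8.05, 8.03, 7.99 and 7.72 in shTR1/shSep15 arrays, 6.41, 5.48, 6.09 and 6.09 in shSep15 arrays, 7.77, 6.40, 5.80 and 5.43 in shTR1 arrays and 7.67, 6.51, 6.98 and 7.59 in control arrays. With 1 array left out at a time the first call stood in 10 of 16 fits (adjusted p up to 0.0567) and the second in all 16 (adjusted p up to 0.0425). Without shTR1 replicates 2 and 4 the non-additivity of Cst6 and Mrc2 did not pass, at 2.34 (adjusted p = 0.0837) and 1.26 (adjusted p = 0.103).

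Against control, genes of the marker lists passed in shSep15 cells alone. Compared to controls 2 of 13 epithelial markers (Krt20 by -3.28 and Krt18 by -2.68), 2 of 13 fibroblast and mesenchymal markers (Col3a1 by -3.04 and Zeb1 by -1.02) and 1 of 16 leukocyte markers (Cd14 by -1.29) fell there (adjusted p of at most 0.039 from limma), and 0 of 8 endothelial markers passed. None of the 50 marker genes measured passed in shTR1/shSep15 or shTR1 cells compared to controls. Between shTR1/shSep15 and shSep15 cells 2 of 13 epithelial, 2 of 13 fibroblast and mesenchymal and 1 of 16 leukocyte markers rose. In that comparison 2.66% of all probe sets passed. Between shSep15 and shTR1 cells 2 epithelial markers and 1 fibroblast and mesenchymal marker were lower in shSep15 cells, where 0.648% of all probe sets passed. Whether the protease differences of the shSep15 line move with these genes was not tested.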

How the data were processed

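The authors deposited 1 table of log2 signals, the probe-set values of 16 Affymetrix mouse whole-genome arrays after RMA, per the submitters' processing notes. RMA corrects background, sets all arrays to one distribution and summarises the probes of a set, so that a shift shared by all genes of a line cannot be seen. Its version and the genome build of the probes were not given in the sources used here. Of 45101 probe sets 64 controls were left out and 45037 tested. The platform annotation gave 1 symbol to 34945 probe sets, several to 932 and none to 9160, and 34741 symbols were matched by gene number. Array medians ran from 4.45 to 4.58 and upper quartiles from 6.35 to 6.76, and the table holds no counts or depth. The number of arrays limits the precision.

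One limma fit (version 3.58.1, R 4.3.3) over the 4 lines, with residual degrees of freedom of 12 and prior degrees of freedom of 2.58, gave 6 comparisons of lines and their non-additivity. P-values were adjusted by Benjamini-Hochberg over all probe sets, with a threshold of 0.05. For a gene with several probe sets the brightest stands for the gene, and the others are given where they differ. Of each other list the genes past the threshold against control were named, at most 5 a list and comparison, and otherwise up to 2 of smallest p. The comparisons in which Mrc2 and Cst6 are given beside those against control were chosen after their values were seen. Exact permutation tests were two-sided. The lists were other metalloproteinases, inhibitors, activators, plasminogen system, ADAM and ADAMTS proteases, cathepsins and cystatins, AP-1 and Ets factors, and epithelial, fibroblast and mesenchymal, leukocyte and endothelial markers. Members and lists were chosen with earlier results of these data known. The scripts were tested on simulated data. Alternatives were an intensity trend in the variance, a fit of only the lines compared, bright probe sets only, median centring, further quantile normalisation, array weights, a block for replicate number, the methods' ANOVA, a 2-fold minimum, the other probe set, and arrays left out. Leaving out shTR1 replicates 2 and 4 together with control replicate 2 was chosen after seeing the data. Figures were drawn with Python 3.11.15 and matplotlib 3.10.9.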

Additional observations from a re-analysis of the deposited data

Results flagged for a closer look

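Of 56 groups of 4 arrays (14 probe sets in 4 lines), 7 held 1 array whose gap to the nearest other was large against the range of its line by Dixon's ratio, a test that chance alone meets in about 1 in 20 groups. Control replicate 2 accounted for 3 of them. It had 8.316 for Mmp13, where the other control arrays had 3.077 to 3.537. At the 2 dimmer Mmp14 probe sets it had 6.295 and 5.824, where the others had 7.102 to 7.243 and 6.895 to 7.059. Another 2 lay in shTR1/shSep15 replicate 2, which had 5.315 for Mmp2, against 4.984 to 5.011 in the other arrays of that line, and 4.532 for Plau, against 4.09 to 4.145. Mmp2 was also low in control replicate 1, at 4.553, where the other control arrays had 5.38 to 5.437. Mmp10 was at 5.146 in shTR1 replicate 3 and at 4.608 to 4.699 in the other arrays labelled shTR1.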

How the results depend on the processing

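With other settings, the number of the 14 member probe sets past the threshold against control was 0 throughout, except for shSep15 cells with array weights (1, Mmp2) and without shTR1 replicates 2 and 4 and control replicate 2 (1), and for the methods' ANOVA unadjusted (2 in shTR1/shSep15, 2 in shSep15 and 1 in shTR1 cells). Between shTR1/shSep15 and shSep15 cells the count of 1 became 4 with only the lines compared, array weights, the ANOVA unadjusted or those 3 arrays left out, and 0 with the ANOVA adjusted, where Timp1 had an adjusted p of 0.0758. Between shTR1/shSep15 and shTR1 cells the count of 0 became 4 with array weights and 5 with the ANOVA unadjusted, and between shSep15 and shTR1 cells 1 with the ANOVA unadjusted and 1 with those 3 arrays left out (Mmp13, -2.10, adjusted p = 0.0245). For non-additivity it became 1 with bright probe sets only, 3 with further quantile normalisation, 5 with array weights, 5 with the ANOVA unadjusted and 3 with those 3 arrays left out. With 1 array left out at a time the counts ran from 0 to 1 for shSep15 and for shTR1 against control, 0 to 4 for shTR1/shSep15 against shSep15, 0 to 3 against shTR1 and 0 to 3 for non-additivity. The causes were not tested.

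Nothing states whether the replicate numbers pair the arrays, and the values do not settle it. Deviations of same-numbered arrays correlated at -0.54 to 0.45 over 24 pairs, 9 of them above 0.1. Of the 16 arrays 4 correlated best with their own number. With the replicate number as a block, 2 member probe sets passed between shTR1/shSep15 and shSep15 (Mmp14 and Timp1) and 1 for non-additivity (Mmp14).

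The differences at the brightest probe set kept their sign in other settings, except for 40, all without a call. With array weights these were Mmp10 (0.21) and Plau (-0.0963) in shTR1/shSep15, Mmp9 (-0.0697) and Mmp10 (0.0652) in shSep15 and Mmp13 (0.23) and Timp1 (-0.12) in shTR1 against control, and Plau between shSep15 and shTR1 (-0.0163). With median centring they were Mmp9 in shTR1/shSep15 (0.0253) and Mmp3 in shTR1 (0.029) against control, and the non-additivity of Mmp3 (-0.0227) and Mmp9 (-0.00675). With further quantile normalisation they were Mmp9 in shTR1/shSep15 (0.0245) and Mmp3 in shTR1 (0.047) against control, Plau between shSep15 and shTR1 (-0.00269), and the non-additivity of Mmp3 (-0.0424) and Plaur (0.0228). Without shTR1 replicates 2 and 4 they were Mmp9 (0.008) and Mmp13 (0.37) in shTR1 against control, Mmp9 (-0.0283) and Plaur (-0.17) between shTR1/shSep15 and shTR1, Mmp14 (-0.10) and Plau (-0.00425) between shSep15 and shTR1, and the non-additivity of Mmp9 (-0.0387) and Mmp13 (-0.0105). With control replicate 2 left out too, they were Mmp10 in shTR1/shSep15 (0.21) and shSep15 (0.12), Mmp9 (0.019), Mmp10 (0.041) and Mmp13 (1.64) in shTR1 against control, the same 4 differences from shTR1 at the same values, and the non-additivity of Mmp9 (-0.0498) and Mmp13 (-1.28). At the other probe set they were Mmp9 (0.0307) and Plau (-0.12) in shTR1/shSep15 against control, Mmp9 between shTR1/shSep15 and shSep15 (0.015), and Mmp2 (0.12) and Plau (-0.0512) between shSep15 and shTR1.

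With 1 array left out, signs turned within these ranges. In shTR1/shSep15 against control they were -0.12 to 0.0551 for Mmp9, -0.32 to 0.21 for Mmp10 and -0.079 to 0.069 for Plau. In shSep15 against control they were -0.0895 to 0.0858 for Mmp9 and -0.41 to 0.12 for Mmp10, and in shTR1 against control -0.11 to 0.0311 for Mmp3, -0.85 to 0.98 for Mmp13 and -0.16 to 0.33 for Timp1. Between shTR1/shSep15 and shSep15 they were -0.0582 to 0.0725 for Mmp3, -0.0948 to 0.0341 for Mmp9 and -0.0222 to 0.18 for Plau, and between shTR1/shSep15 and shTR1 -0.00508 to 0.11 for Mmp9, -0.003 to 0.17 for Plau and -0.0423 to 0.15 for Plaur. Between shSep15 and shTR1 they were -0.0546 to 0.18 for Mmp14, -0.076 to 0.0833 for Plau and -0.15 to 0.0485 for Plaur. For non-additivity they were -0.0309 to 0.12 for Mmp3, -0.0268 to 0.15 for Mmp9 and -0.61 to 1.22 for Mmp13. Of the 14 member probe sets 8 were brighter than the median of all, and Mmp3, Mmp13 and Plau were dimmer at every probe set.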

Other observations

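The genes whose signals over the 16 arrays were most like each member were sought among 18192 others, by Pearson correlation at the brightest probe set. These are descriptions, since the arrays share lines, and the best of so many correlations is high by selection. Closest to Timp1 were Acot7, an acyl-CoA thioesterase, at 0.90, the clathrin light chain Cltb at 0.90 and Rgs20 at 0.89. Closest to Mmp14 were Klhdc8a at 0.92, Sephs2, a selenophosphate synthetase that is itself a selenoprotein, at 0.91 and the actin-severing cofilin Cfl1 at 0.90, and these correlations were 0.90, 0.90 and 0.88 without control replicate 2. Nlrp3 stood closest to Mmp13 at 0.94, but its rank correlation was 0.28 and the Pearson value without control replicate 2 was 0.75, so that the likeness rested largely on that array. Mmp10 had Ube2e1 at 0.92, Mmp2 had Ralgds at 0.95, Mmp3 had Mpst at 0.86, Mmp9 had Kif2b at 0.91, Plau had Orm1 at 0.95 and Plaur had Dhx8 at 0.82.

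Among the 36 pairs of members, Mmp14 and Timp1 correlated at 0.75 over the 16 arrays and at 0.59 within lines, after line means were taken out. The pair of Mmp2 and Plau had 0.77 and 0.83, and both had a high array in shTR1/shSep15 replicate 2. Mmp2 with Mmp9 had 0.63 and 0.77, and Mmp9 with Plau 0.64 and 0.65. These genes were all dim, and the median of all probe sets was 4.574 in that array and 4.467 to 4.478 in the others of its line. Whether dim signals shifted together between arrays was not tested. Mmp10 and Plaur had 0.49 and 0.74.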
